A study of Mus musculus with 208 samples.

Results

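The effect of perinatal morphine on neuronal gene expression in the striatum was examined after an acute immune challenge, by comparing adult mice that had received morphine around birth and LPS in adulthood (MOR–LPS, n = 18) with mice that had received saline around birth and LPS in adulthood (SAL–LPS, n = 15). Members were the genes with a mean CPM (counts scaled to the library total) of at least 1 in these libraries, which left 14258 of the 46403 genes in the table. A library was to be dropped where its total fell under 0.5 of the median total, and 0 of the 54 striatum libraries did (208 libraries in the whole series). All mice were C57BL/6NTac. Dams received morphine sulfate at 10 mg/kg/day from an implanted minipump or saline, pups were fostered to drug-naive surrogates and injected with 10 mg/kg morphine or saline 2 times a day from postnatal day 1 to 14, and the adults were killed 2 h after LPS or saline. The SAL–LPS group held 9 females and 6 males of 8 litters and the MOR–LPS group 8 females and 10 males of 9 litters. The groups that received saline in adulthood were SAL–SAL (n = 13, 6 females and 7 males of 7 litters) and MOR–SAL (n = 8, 4 females and 4 males of 6 litters). The litter is read here from the first part of each animal number, as the study's sample list explains that number, and each such number held animals of 1 sex in the striatum. The study's methods count more litters than there are such numbers, so what a number stands for is not settled, and each value by litter below is a value by this number. Exposure was assigned to whole litters and 0 litters held both exposures, so that litter and exposure cannot be told apart for any single litter. Each library came from about 5000 NeuN+ nuclei that were sorted from a bilateral 2 mm punch, and reads nuclear RNA of the sorted nuclei.

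The striatum is the main input station of the basal ganglia. Most of its neurons are GABAergic medium spiny neurons, which carry dopamine D1 or D2 receptors and make the opioid peptides dynorphin or enkephalin. Morphine acts on the µ-opioid receptor Oprm1, which couples to inhibitory G proteins and lowers cAMP. LPS, a cell wall component of Gram-negative bacteria, raises circulating cytokines and glucocorticoids, and reaches brain cells largely through these signals. NeuN (Rbfox3) is a nuclear protein of most neurons, so a NeuN gate is meant to keep neurons and to leave out glia.

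Rbfox3 was detected in every striatum library, and its lowest value in MOR–LPS was 166 normalized CPM, far under the group median given below. Normalized CPM are CPM after the TMM scaling of edgeR. Library totals ranged from 6467848 to 76678084 counts in SAL–LPS (median 12141227) and from 6879077 to 92945090 in MOR–LPS (median 11647899), and did not differ detectably (two-sided permutation test, p = 0.9634). Genes detected per library were 17945 ± 726 (SD, n = 15) in SAL–LPS and 18368 ± 582 (SD, n = 18) in MOR–LPS (two-sided permutation test, p = 0.07106). The medium spiny neuron genes stood at a level under 5.5, a bound chosen after seeing the data, in 6 libraries, where a level is the mean of log2(normalized CPM + 1) over a list. These libraries were animals 3-2 and 3-4 of SAL–SAL, 1-2 and 3-3 of SAL–LPS, and 14-4 and 15-1 of MOR–LPS (litter first, then animal). In these 6 libraries Adora2a, the adenosine receptor of D2-type medium spiny neurons, was between 0 and 6.81 normalized CPM, while its lowest value in the other 48 libraries was 9.18. Drd1, the D1 receptor, was between 0.521 and 6.13 in the 6 libraries and at least 9.64 elsewhere. Both genes mark the neurons of the list that chose these libraries, so their values describe that choice. Animal 13-2 of MOR–LPS, at 5.70, stood just above the bound. Cortical projection neuron markers had levels of 4.71 and 5.5 in 3-2 and 3-4, 4.34 in 13-2 and between 3.08 and 3.32 in the other 4 low libraries. The defining markers of medium spiny neurons were thus low in these 6 libraries, and values without them are given beside the edgeR counts below. For a list without such values its counts at an unadjusted p under 0.05 were the same in MOR–LPS against SAL–LPS, and DESeq2 was not run without them.

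No gene passed the threshold for the exposure effect after LPS. In edgeR's quasi-likelihood fit with Benjamini-Hochberg adjustment over 23426 tested genes, 0 of the 14258 described genes (0%) reached an adjusted p under 0.05, and the smallest adjusted p was 0.0721. At an unadjusted p under 0.05 there were 1213 described genes, of which 869 were higher in MOR–LPS (6.09% of the described genes) and 344 were lower (2.41%). Without the 6 libraries low in medium spiny neuron genes these were 705 and 154. Between an adjusted p of 0.05 and 0.1 lay 116 genes with higher and 5 with lower values. DESeq2 on the same counts called 85 of 14239 described genes as higher (0.597%) and 2 as lower (0.014%). The median log2FC over all described genes was 0.01, and for 0 genes did the 18 MOR–LPS libraries lie wholly above or wholly below the 15 SAL–LPS libraries. The edgeR count rose to 75 of all tested genes without SAL–LPS animal 10-4, to 129 without litter 12 and to 49 without litter 6. The lower side at an unadjusted p under 0.05 ranged from 206 described genes without litter 4 to 747 without litter 5, with 229 without SAL–LPS animal 3-3 and 545 without SAL–LPS animal 5-0.

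The named genes with the smallest p, 12 on either side, were taken as leading genes. Their promoters were read from RefSeq (GRCm38.p6, 250 bases before each start) and searched on both strands for the cAMP response element TGACGTCA, which the factor CREB binds downstream of cAMP, and for the AP-1 motif TGANTCA, which Fos and Jun proteins bind. Neither motif contains the other. Of the 10434 described genes with a promoter, 3.05% held the cAMP response element and 5.4% the AP-1 motif. Neither motif occurred in the promoters of the 12 genes with higher values. Among the genes with lower values 8 of 12 had a promoter, 0 held the cAMP response element, and Entpd3 and Clec18a held the AP-1 motif. These 2 promoters are shown for that match, in capitals, and that of the amino acid exchanger gene Slc7a10 as an example of the genes with higher values and no match, each 5′ to 3′ on the strand of its gene.
Slc7a10: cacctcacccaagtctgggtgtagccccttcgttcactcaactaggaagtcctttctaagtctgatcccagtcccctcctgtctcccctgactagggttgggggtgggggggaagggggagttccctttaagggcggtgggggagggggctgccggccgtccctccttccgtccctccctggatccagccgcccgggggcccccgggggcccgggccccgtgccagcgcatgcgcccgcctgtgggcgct
Entpd3: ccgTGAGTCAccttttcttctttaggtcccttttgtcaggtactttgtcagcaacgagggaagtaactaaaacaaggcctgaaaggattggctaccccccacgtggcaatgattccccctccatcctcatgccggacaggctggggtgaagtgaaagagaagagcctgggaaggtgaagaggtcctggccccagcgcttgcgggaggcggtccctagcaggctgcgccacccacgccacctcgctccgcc
Clec18a: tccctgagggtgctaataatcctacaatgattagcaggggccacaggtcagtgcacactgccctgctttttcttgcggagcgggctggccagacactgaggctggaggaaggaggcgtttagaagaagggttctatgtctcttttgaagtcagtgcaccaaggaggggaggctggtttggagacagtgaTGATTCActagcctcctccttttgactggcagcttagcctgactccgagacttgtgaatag
The windows lie at chr7:35186135-35186384 on the plus strand for Slc7a10, chr9:120539568-120539817 on the plus strand for Entpd3 and chr8:111081709-111081958 on the minus strand for Clec18a.

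Among the genes with higher values, Plxnb1 led by p. It encodes plexin B1, a semaphorin receptor, and lies at chr9:109095389-109119917 (mm10, positions from GENCODE M21). Normalized CPM of Plxnb1 ran from 9.19 over a median of 14.8 to 39.0 in SAL–LPS and from 10.4 over 30.5 to 124 in MOR–LPS. The medians thus differed, 7 of 18 MOR–LPS libraries lay above every SAL–LPS library, and the others overlapped with SAL–LPS (log2FC 1.35 ± 0.26 SE, edgeR adjusted p = 0.0721). Fgfr3, an FGF receptor that is enriched in astrocytes (chr5:33721674-33737068), ran from 1.08 over 10.4 to 21.7 in SAL–LPS and from 3.26 over 12.7 to 209 in MOR–LPS. Its medians were close and its spread was carried by 7 MOR–LPS libraries above the SAL–LPS range (log2FC 1.83 ± 0.40). Aldh1l1, a folate enzyme that marks astrocytes (chr6:90486427-90600203), ran from 4.16 over 5.78 to 23.3 in SAL–LPS and from 3.80 over 9.30 to 215 in MOR–LPS, with 5 libraries above the SAL–LPS range (log2FC 1.88 ± 0.44). Without animal 14-4, the highest library of both genes, log2FC were 1.16 for Fgfr3 and 1.00 for Aldh1l1. Slc7a10, the exchanger Asc-1 for small neutral amino acids, ran from 0.462 over 1.89 to 3.84 in SAL–LPS and from 0 over 2.50 to 20.9 in MOR–LPS (log2FC 1.88 ± 0.43). For Slc7a10, too, 7 MOR–LPS libraries stood above all SAL–LPS libraries and the rest shared their range.

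The other 8 of these genes had the same edgeR adjusted p of 0.0721. Fam107a, an actin-binding protein that glucocorticoids and stress induce, ran from 0.811 over 4.93 to 21.9 in SAL–LPS and from 6.22 over 12.8 to 37.7 in MOR–LPS (log2FC 1.38 ± 0.32). All 18 MOR–LPS libraries were above the SAL–LPS median of Fam107a, a shift that was not confined to the uppermost libraries. Tma16, a factor of the ribosome assembly machinery, also lay above the SAL–LPS median in all 18 libraries, with a median of 5.98 in SAL–LPS and 9.68 in MOR–LPS (log2FC 0.83 ± 0.19). Synm, which encodes the intermediate filament protein synemin, had medians of 5.73 and 10.8 (log2FC 1.22 ± 0.26), and 17 of 18 MOR–LPS libraries were above the SAL–LPS median. Ston2, an adaptor of endocytosis, had medians of 10.4 and 19.0 (log2FC 1.19 ± 0.26), also with 17 of 18 above. The thioesterase gene Acot11 had medians of 3.90 and 8.51, and 10 of 18 MOR–LPS libraries exceeded the SAL–LPS range (log2FC 1.54 ± 0.34). Medians were 3.88 and 6.76 for Rhog, a small GTPase, 25.1 and 50.9 for Tns3, a focal adhesion protein, and 1.05 and 3.42 for Slc7a15, of the amino acid transporter family, with log2FC of 1.47 ± 0.34, 1.28 ± 0.30 and 2.59 ± 0.58.

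The 12 named genes with the smallest DESeq2 p among those called higher included Slc6a11, the astrocytic GABA transporter GAT-3, Eya4, a transcriptional coactivator, Xaf1, an interferon-induced gene, and Ezr. Ezr links the membrane to actin in fine processes, and of the 103 named genes it had the most MOR–LPS libraries, 13 of 18, above the SAL–LPS range. Its normalized CPM ran from 0.891 over 2.69 to 5.08 in SAL–LPS and from 2.19 over 5.68 to 10.8 in MOR–LPS (DESeq2 log2FC 1.22, adjusted p = 0.00727). The corresponding DESeq2 log2FC were 1.70 for Slc6a11, 1.74 for Eya4 and 2.52 for Xaf1, each with an adjusted p of 0.00809.

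Among the genes with lower values, Cfap74, a protein of motile cilia (chr4:155409190-155466823), ran from 22.8 over 66.2 to 131 normalized CPM in SAL–LPS and from 22.1 over 38.7 to 62.5 in MOR–LPS. Every MOR–LPS library was under the SAL–LPS median of Cfap74, and the lower ends of both groups coincided (log2FC −0.73 ± 0.18, edgeR adjusted p = 0.0784). Entpd3, an enzyme that degrades extracellular nucleotides (chr9:120539818-120568327), ran from 12.6 over 21.9 to 34.7 and from 8.95 over 15.4 to 20.2. Here too 0 of 18 MOR–LPS libraries were above the SAL–LPS median (log2FC −0.54 ± 0.15, edgeR adjusted p = 0.0784). Cfap74 and Entpd3 were the 2 genes that DESeq2 called lower (adjusted p of 0.0299 and 0.0448). Slc25a37, the mitochondrial iron importer mitoferrin-1 (chr14:69241848-69285112), ran from 20.9 over 29.5 to 48.7 in SAL–LPS and from 13.4 over 19.2 to 35.6 in MOR–LPS. For Slc25a37 11 of 18 MOR–LPS libraries lay under the SAL–LPS range (log2FC −0.56 ± 0.15).

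The remaining genes had smaller or less even differences. The secretory pathway kinase gene Fam20c had medians of 91.2 and 71.3 (log2FC −0.58 ± 0.16), and the interleukin-11 receptor gene Il11ra1 17.1 and 12.9 (log2FC −0.47 ± 0.14). Values of log2FC were −0.50 for Ppp4r4, a regulatory subunit of protein phosphatase 4, −0.54 for Clgn, an endoplasmic reticulum chaperone, −0.41 for Lonrf1, −0.34 for the ethanolamine kinase gene Etnk1 and −0.40 for the sphingomyelinase gene Smpd4. Clec18a, a lectin gene, had medians of 1.17 and 0.957, and its log2FC of −2.06 ± 0.66 went with a highest value of 22.0 in SAL–LPS and 2.65 in MOR–LPS and was −0.86 without litter 2. Of the 24 genes, exons of Plxnb1, Synm, Fgfr3, Acot11, Slc7a10, Aldh1l1, Cfap74, Slc25a37, Il11ra1 and Etnk1 overlap a gene on the other strand, and reads of the overlap cannot be assigned where strand was not used in counting.

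**Figure D1:**
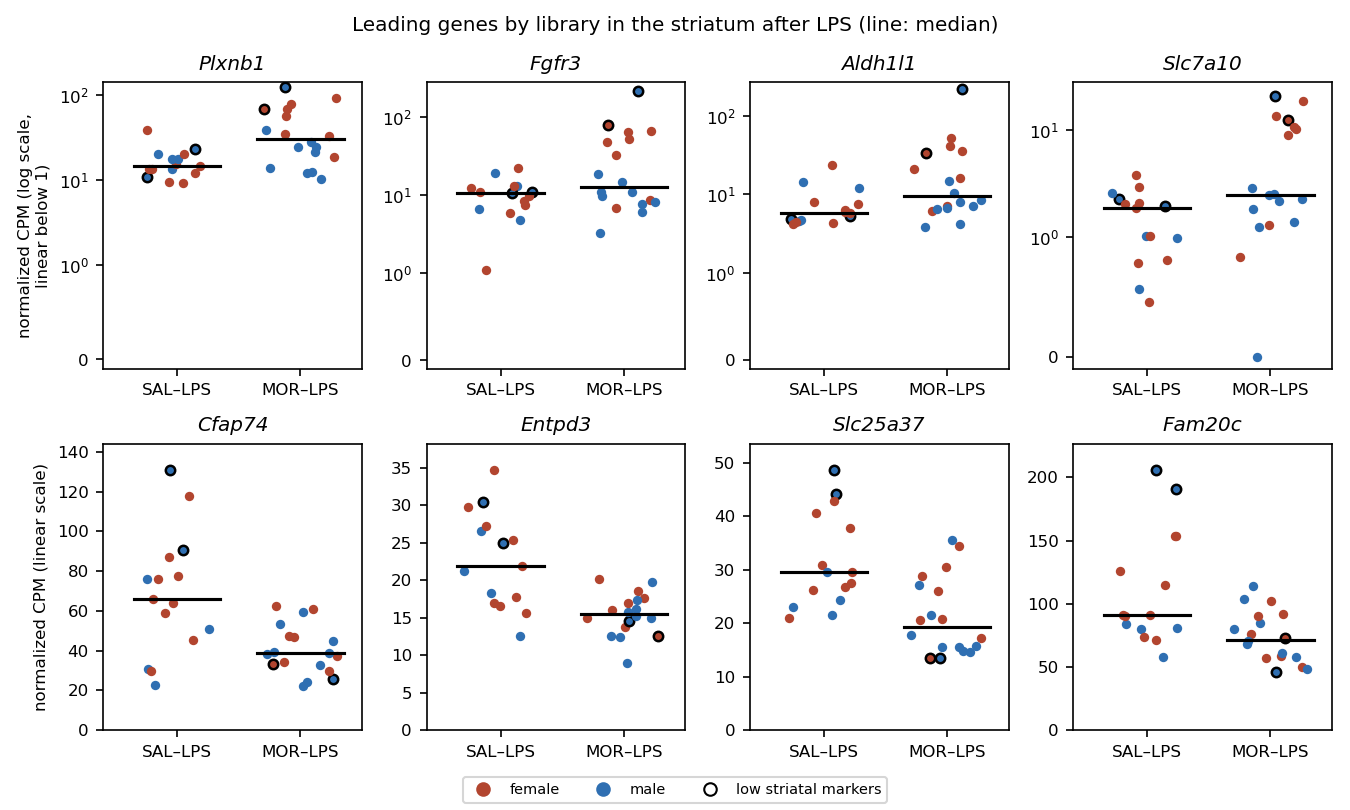
Normalized CPM of 8 leading genes in each library after LPS, by group, with females in red, males in blue, a line at the median and a black ring around libraries low in medium spiny neuron genes. The upper 4 axes are logarithmic above 1 and linear below, and the lower 4 are linear. In the upper row a few MOR–LPS libraries rise above the SAL–LPS range over a shared lower part, while Cfap74 and Entpd3 lie under the SAL–LPS median in all 18 MOR–LPS libraries.

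Glial marker genes were detected in these NeuN+ libraries and had the highest medians of all 24 lists examined. Of 16 described oligodendrocyte markers 15 were higher in MOR–LPS at an unadjusted edgeR p under 0.05 and 0 were lower, against 6.09% of all described genes on the higher side, with a median log2FC of 1.32. Mbp, the myelin basic protein, ran from 86.9 over 159 to 551 normalized CPM in SAL–LPS and from 89.5 over 203 to 1790 in MOR–LPS (log2FC 1.24 ± 0.35, edgeR adjusted p = 0.0850). Of 10 astrocyte markers 8 were higher and 0 lower, with a median log2FC of 1.30, among them the water channel gene Aqp4 (medians of 2.53 and 4.20, log2FC 1.41 ± 0.40) beside Fgfr3 and Aldh1l1. Gfap, of the same list, was under 1 CPM and is not described. Of 10 microglia markers 4 were higher and 0 lower, with a median log2FC of 1.17. Csf1r, the microglial growth factor receptor, had medians of 3.30 and 5.90 (log2FC 1.27 ± 0.47, and 0.67 without litter 16), and Itgam, the integrin CD11b, 0.778 and 1.62 (log2FC 1.63 ± 0.59). DESeq2 called 4 astrocyte, 1 oligodendrocyte and 0 microglia markers. The endothelial marker Cldn5 had a median of 0 in both groups.

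The glial levels were not raised evenly over the MOR–LPS libraries. The level of the astrocyte list was 2.80 ± 0.43 (SD, n = 15) in SAL–LPS, with a range of 1.95 to 3.72, and 3.56 ± 1.03 (SD, n = 18) in MOR–LPS, with a range of 2.20 to 5.43. The 7 MOR–LPS libraries above every SAL–LPS library were animals 7-1 (4.65), 14-4 (5.43), 15-1 (4.87), 15-3 (4.75), 16-0 (4.37), 16-2 (5.00) and 16-4 (4.08), of which 6 were female and 3 came from litter 16. The other 11 MOR–LPS libraries did not exceed 3.53. The level of the general neuron markers was 8.01 ± 0.12 in SAL–LPS (7.85 to 8.21) and 7.89 ± 0.24 in MOR–LPS (7.53 to 8.37). It was below every SAL–LPS library in 9 MOR–LPS libraries, and was between 7.53 and 7.85 in the 7 with the highest astrocyte levels. The oligodendrocyte level was 3.61 ± 0.81 in SAL–LPS (2.60 to 5.65) and 4.43 ± 1.56 in MOR–LPS (2.48 to 7.09), with 5 libraries above the SAL–LPS range. The microglia level was 1.46 ± 0.69 and 2.06 ± 1.11, with 5 libraries above. Within the SAL–LPS group animal 10-4, without which 75 genes were called, had the highest glial levels (3.72, 5.65 and 3.12 for astrocytes, oligodendrocytes and microglia) and the lowest total. In bulk libraries more nuclei of a type and more RNA per nucleus cannot be told apart.

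The genes with higher values peaked mostly in these same libraries. Of the 116 genes with higher values and an adjusted p under 0.1, the highest MOR–LPS library was 15-3 for 36, 14-4 for 31, 16-2 for 20, 7-1 for 13 and 16-0 for 8. With the levels of the 3 glial lists as covariates, edgeR called 24 of all tested genes, 9 higher and 15 lower, of which 0 were among the described genes, and the described genes at an unadjusted p under 0.05 numbered 210 higher and 228 lower. Under these covariates 23 of the 24 leading genes kept their direction and 16 kept an unadjusted p under 0.05, while Fgfr3 changed sign to −0.13. A kept direction is not a kept size. Over all alternative fits the lowest log2FC was 0.49 for Plxnb1, 0.67 for Synm, 0.56 for Acot11 and 0.51 for Ston2. Fgfr3 and Aldh1l1 belong to the astrocyte list, so that a covariate contains them and their fall is built into this fit. The covariates are built from genes of the same libraries, and the part of glial RNA in the other differences was not tested beyond this fit. Without the 6 libraries low in medium spiny neuron genes, edgeR called 0 genes, all 24 leading genes kept their direction and 23 an unadjusted p under 0.05. Marker counts were then 11 of 16 for oligodendrocytes, 7 of 10 for astrocytes and 3 of 10 for microglia, with medians of 1.18, 0.94 and 1.12. Without litter 16 they were 8, 7 and 0, with medians of 1.03, 1.09 and 0.47, and with a litter correlation estimated by limma-voom they were 10, 8 and 7. Over all described genes 602 were higher and 277 lower without litter 16, and 730 and 311 with the litter correlation.

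**Figure D2:**
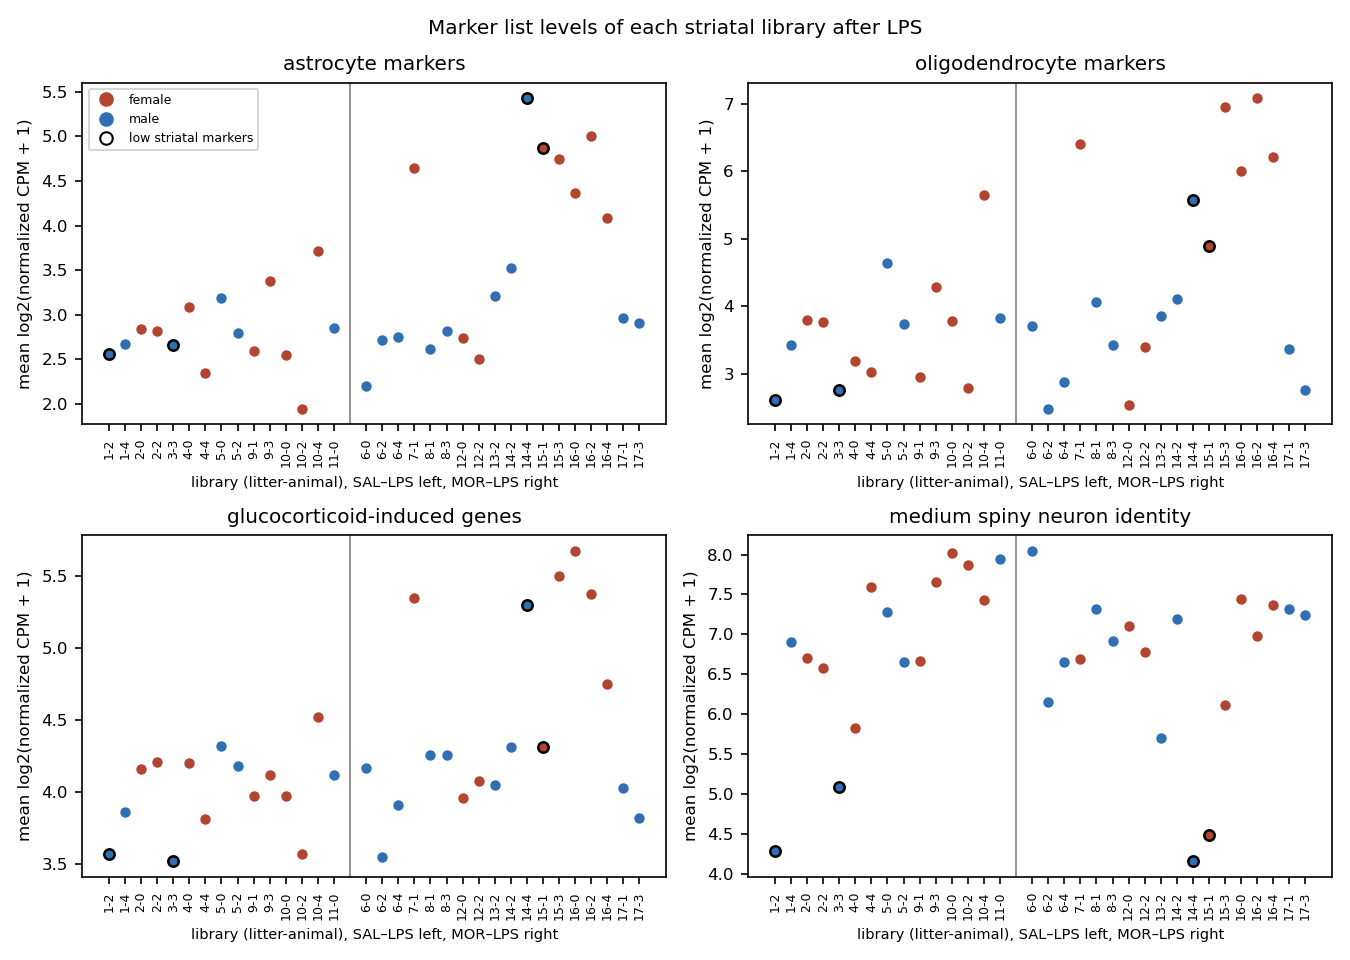
Level of 4 gene lists, the mean of log2(normalized CPM + 1) over a list's described members, in each library after LPS, with SAL–LPS libraries left and MOR–LPS libraries right of the line, females in red, males in blue and a black ring around libraries low in medium spiny neuron genes. The astrocyte level is between 4.08 and 5.43 in 7 MOR–LPS libraries and does not exceed 3.72 in SAL–LPS, while the medium spiny neuron levels of the groups overlap.

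Genes induced by glucocorticoids also leaned to higher values. Of 23 described genes 15 were higher at an unadjusted edgeR p under 0.05 (65.2%, against 6.09% of all described genes) and 0 lower, with a median log2FC of 0.82. Hif3a, a hypoxia-inducible factor subunit, ran from 3.06 over 7.90 to 27.8 normalized CPM in SAL–LPS and from 2.18 over 14.4 to 92.7 in MOR–LPS (log2FC 1.60 ± 0.39, edgeR adjusted p = 0.0721). Fkbp5, a co-chaperone of the glucocorticoid receptor that the receptor itself induces, had medians of 83.6 and 103 (log2FC 0.53 ± 0.16), and 15 of 18 MOR–LPS libraries were above the SAL–LPS median. Tsc22d3, the glucocorticoid-induced leucine zipper, had medians of 11.6 and 18.3 (log2FC 0.85 ± 0.38), and Mertk, a receptor for engulfing dying cells that astrocytes and microglia also express, 14.9 and 20.6 (log2FC 1.34 ± 0.38). The level of the list was 4.01 ± 0.29 in SAL–LPS (3.52 to 4.52) and 4.48 ± 0.66 in MOR–LPS (3.55 to 5.68), and 6 MOR–LPS libraries lay above the SAL–LPS range. With the glial levels as covariates 2 genes of the list were higher and 1 lower at an unadjusted p under 0.05, and the median log2FC was 0.24. Without the libraries low in medium spiny neuron genes 12 were higher, and without litter 16 there were 9, with medians of 0.74 and 0.54. With the litter correlation estimated by limma-voom 8 were higher, with a median of 0.71.

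Of 19 described NF-kB and acute inflammation genes 6 were higher (31.6%, against 6.09% of all described genes) and 0 lower at an unadjusted edgeR p under 0.05, with a median log2FC of 0.34. Relb, a subunit of the non-canonical NF-kB pathway, ran from 0.367 over 1.89 to 3.85 in SAL–LPS and from 1.53 over 3.24 to 6.88 in MOR–LPS (log2FC 0.99 ± 0.25, edgeR adjusted p = 0.0721). For Relb 17 of 18 MOR–LPS libraries were above the SAL–LPS median. Nfkbia, the inhibitor that NF-kB induces in feedback, had medians of 5.91 and 11.4 (log2FC 1.21 ± 0.43, and 0.60 without litter 16), and the deubiquitinase gene Tnfaip3 1.47 and 1.27 (log2FC −0.09 ± 0.46). The cytokine genes Il1b, Tnf and Il6 and the chemokine genes Ccl2 and Cxcl10 were under 1 CPM and are not described. The bound of 1 CPM was set on the mean over both groups, so a gene that is low in SAL–LPS could be described through MOR–LPS alone, as were Icam1 (means of 0.545 and 1.77 normalized CPM) and Irf1 (0.749 and 2.01), both named after their values were seen and both counted as higher. Irf1 is also counted in the interferon list below, and the shares of both lists would be smaller without these genes. Of 18 interferon response and antigen presentation genes 5 were higher (27.8%) and 0 lower, with a median log2FC of 0.53. Nlrc5, the activator of MHC class I genes, had medians of 0.726 and 1.99, with all 18 MOR–LPS libraries above the SAL–LPS median (log2FC 2.10 ± 0.55, edgeR adjusted p = 0.0784), and its log2FC was 1.33 without animal 14-4. H2-K1, a class I heavy chain, had medians of 1.15 and 2.58 normalized CPM (log2FC 1.82 ± 0.59). The levels of the NF-kB and interferon lists exceeded the SAL–LPS range in 8 MOR–LPS libraries each, and with the glial levels as covariates 1 and 0 members had an unadjusted p under 0.05. Without litter 16 there were 2 and 4 members higher, with medians of 0.31 and 0.30, and with the litter correlation estimated by limma-voom 4 and 4, with medians of 0.18 and 0.38. There were 6 and 5, with medians of 0.31 and 0.43, without the libraries low in medium spiny neuron genes.

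**Figure D3:**
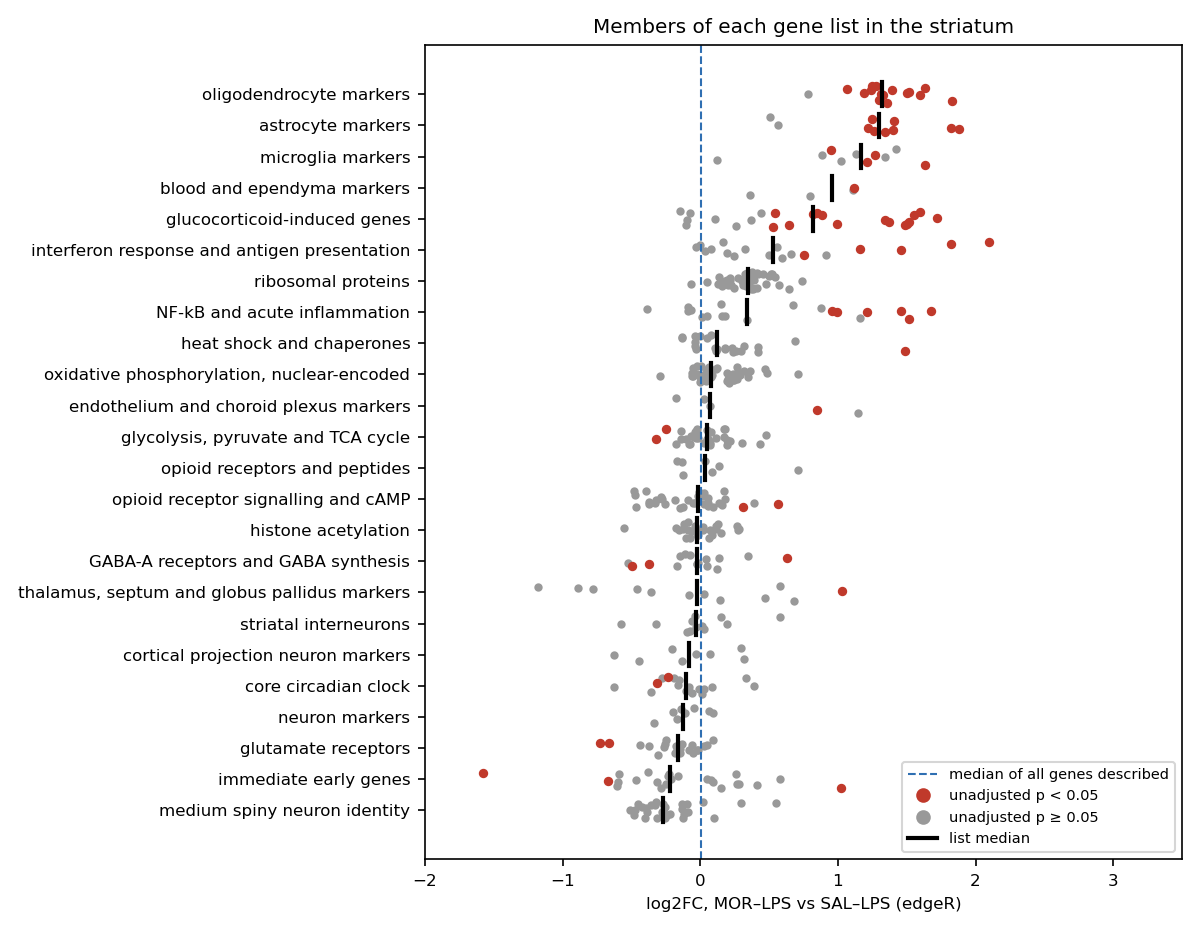
log2FC of MOR–LPS against SAL–LPS for each described member of 24 gene lists. Red points have an unadjusted p under 0.05, black bars are list medians and the dashed line is the median of all described genes. The glial, blood and ependyma, glucocorticoid and interferon lists have medians between 0.53 and 1.32, and the medium spiny neuron list has a median of −0.27.

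Of 7 described genes of opioid receptors and peptides 0 were higher and 0 lower at an unadjusted edgeR p under 0.05. Oprm1, the target of morphine, ran from 39.0 over 69.2 to 114 normalized CPM in SAL–LPS and from 30.0 over 69.6 to 105 in MOR–LPS. The Oprm1 ranges and medians nearly coincided (log2FC 0.04 ± 0.20, edgeR adjusted p = 0.985). The δ-receptor gene Oprd1 had medians of 13.5 and 15.0 (log2FC −0.17 ± 0.28), the κ-receptor gene Oprk1 32.7 and 33.9 (log2FC 0.09 ± 0.27) and the nociceptin receptor gene Oprl1 21.8 and 23.4 (log2FC 0.14 ± 0.21). Among the peptides, Penk (enkephalin) had medians of 302 and 283 (log2FC −0.14 ± 0.58), Pdyn (dynorphin) 24.9 and 28.4 (log2FC −0.12 ± 0.45) and Pnoc (nociceptin) 4.06 and 5.85 (log2FC 0.71 ± 0.41). The spread of Penk, from 2.78 to 1750 in SAL–LPS alone, leaves a difference of its size undetectable. Of 35 genes of opioid receptor signalling and cAMP 2 were higher at an unadjusted p under 0.05 (5.71%, against 6.09% of all described genes), the inhibitory G protein subunits Gnai2 (medians of 15.0 and 20.9, log2FC 0.57 ± 0.20) and Gnai1 (63.3 and 78.9, log2FC 0.31 ± 0.15), and 0 were lower, with a median of −0.02. Of 27 genes of histone acetylation 0 were higher and 0 lower. Without the libraries low in medium spiny neuron genes 2 of the 35 were higher and 1 lower, and 2 of the 27 were higher and 0 lower.

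Genes of medium spiny neuron identity did not pass the test on either side, with 0 of 29 higher and 0 lower at an unadjusted p under 0.05 and a median log2FC of −0.27. The fitted value was below 0 for 25 of them. Without the libraries low in these genes 1 was lower and the median was −0.34, and without litter 16 the median was −0.41. The median was −0.11 without litter 15 and turned to 0.21 with the glial levels as covariates and to 0.09 in males alone, so its direction depends on the fit. Drd1 had medians of 49.0 in SAL–LPS and 49.1 in MOR–LPS (log2FC −0.38 ± 0.48), Drd2 210 and 200 (log2FC −0.28 ± 0.43), and Foxp2, a transcription factor of these neurons, 336 and 279 (log2FC −0.40 ± 0.20). The list's level was 6.83 ± 1.08 and 6.65 ± 1.01, with 2 of the low libraries in each group. General neuron markers were also 0 of 8 on both sides, with a median of −0.12, although 9 MOR–LPS libraries had a lower neuron marker level than any SAL–LPS library, and Rbfox3 had medians of 1260 and 1110 (log2FC −0.34 ± 0.29). Interneuron genes were 0 of 12 on both sides, with a median of −0.03, and 1 was lower without the low libraries.

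Receptor genes showed few values past an unadjusted p of 0.05. Over all described genes 6.09% were higher and 2.41% lower at this p, which holds for each list here. Of 22 glutamate receptor genes 2 were lower, among them Grm4 (medians of 185 and 127, log2FC −0.66 ± 0.26), 0 were higher and the median was −0.16. Without the libraries low in medium spiny neuron genes 0 of the 22 were lower. The GABA, immediate early and clock lists described next then had 2, 2 and 1 lower and 0 higher. Of 16 GABA genes Gabrb2 (log2FC −0.37 ± 0.13) and Gabra4 (log2FC −0.50 ± 0.19) were lower and Gabrg1, named after its value was seen, was higher (log2FC 0.63 ± 0.29), with a median of −0.02. Of 24 immediate early genes, which neuronal activity induces, the nuclear receptor genes Nr4a2 (log2FC −1.58 ± 0.74, and −0.84 without litter 2) and Nr4a3 (log2FC −0.67 ± 0.32, and −0.38 without litter 10) were lower and Maff, named after its value was seen, was higher (log2FC 1.02 ± 0.51). Fos had medians of 6.86 and 6.43 (log2FC −0.16 ± 0.31), Arc 37.0 and 20.1 (log2FC −0.29 ± 0.34) and Egr1 47.9 and 38.5 (log2FC 0.09 ± 0.40), each with groups that overlapped. Of 17 clock genes 2 were lower, against 2.41% of all described genes, Nr1d2 (medians of 104 and 88.5, log2FC −0.23 ± 0.10) and Hlf (158 and 134, log2FC −0.31 ± 0.14).

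Metabolic and housekeeping lists had few members past the test. Of 35 glycolysis and TCA genes 2 were lower, against 2.41% of all described genes, Pfkp (log2FC −0.25 ± 0.09) and Gpi1 (log2FC −0.32 ± 0.12), both enzymes of upper glycolysis, and 0 were higher, with a median of 0.05. Of 43 nuclear-encoded oxidative phosphorylation genes 0 were on either side, with a median of 0.08. Without litter 16 the medians of these lists were −0.18 and −0.09. Ribosomal protein genes were 0 of 42 on either side, although 41 of the 42 fitted values were above 0, with a median log2FC of 0.35. Their level was 3.27 ± 0.76 in SAL–LPS and 3.56 ± 0.87 in MOR–LPS. The ribosomal protein median fell to 0.05 without litter 16 and was 0.22 without the libraries low in medium spiny neuron genes. Of 23 chaperone genes 1 was higher, against 6.09% of all described genes, Cryab (medians of 1.89 and 4.17, log2FC 1.49 ± 0.58, and 0.78 without litter 16), a small heat shock protein that oligodendrocytes also express. Markers of neighbouring regions and other cells were 0 of 8 for cortical projection neurons, 1 of 12 for thalamus, septum and globus pallidus (Nkx2-1), 1 of 5 for endothelium and choroid plexus (Kl) and 1 of 4 for blood and ependyma (Foxj1) on the higher side, against the same 6.09%, and 0 in each on the lower. The 4 blood and ependyma genes had a median log2FC of 0.95 and a level of 0.442 ± 0.236 in SAL–LPS and 0.707 ± 0.264 in MOR–LPS, where 17 of 18 libraries were above the SAL–LPS median. With the glial levels as covariates their median was 0.048, and 0 had an unadjusted p under 0.05. These 4 counts were 0, 0, 0 and 1 without the libraries low in medium spiny neuron genes.

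Without the immune challenge, MOR–SAL against SAL–SAL also had 0 genes at an edgeR adjusted p under 0.05, with 459 described genes higher (3.22%) and 654 lower (4.59%) at an unadjusted p under 0.05 and 1 described gene called by DESeq2. The glial and glucocorticoid lists had medians below 0 there, with log2FC of −0.83 for astrocyte, −0.62 for oligodendrocyte, −1.45 for microglia and −0.10 for glucocorticoid-induced genes, and 1, 0, 3 and 0 members lower and 0, 0, 0 and 2 higher at an unadjusted p under 0.05. Without the libraries low in medium spiny neuron genes, 2 of them in SAL–SAL, these medians were −0.76, −0.77, −1.64 and −0.05, with 385 described genes higher and 716 lower. The 12 leading genes with higher values after LPS all had fitted values below 0 without it, from −0.11 for Plxnb1 to −0.88 for Ston2, and of the 12 with lower values 10 were above 0, while Clec18a stood at −1.94 and Clgn at −0.04. Genes detected per library were 17966 ± 644 (SD, n = 13) in SAL–SAL and 16701 ± 1736 (SD, n = 8) in MOR–SAL. Animals 15-0 and 12-1 of MOR–SAL had only 13555 and 14450, and the contrast without them was not fitted. The difference between the exposure effects with and without LPS (interaction) called 0 described genes, with 1151 higher (8.07%) and 687 lower (4.82%) at an unadjusted p under 0.05 and 107 called by DESeq2. On this interaction 8 of 10 astrocyte, 12 of 16 oligodendrocyte, 9 of 10 microglia and 7 of 23 glucocorticoid-induced genes were higher, with medians of 2.14, 1.99, 2.68 and 1.17. Without the low libraries there were 6, 10, 8 and 5, with medians of 1.60, 1.83, 2.84 and 0.71, and 864 described genes higher and 434 lower. Glutamate receptor, clock and medium spiny neuron genes went the other way, with 4 of 22, 4 of 17 and 2 of 29 lower and 0 higher. Their interaction medians were −0.45, −0.19 and −0.62, and without the low libraries 3, 1 and 5 were lower. Among the leading genes the interaction was 1.86 for Synm, 2.07 for Ston2 and 2.08 for Tns3. These genes were chosen by the difference after LPS, which the interaction contains, so these values are a description. Ribosomal protein genes, of which none passed in the main comparison, had 8 of 42 higher on the interaction, with a median of −0.65 without LPS and 0.35 with it. Glycolysis and TCA genes had 8 of 35 higher on the interaction and 8 of 35 lower without LPS, with a median of −0.43 without LPS and 0.05 with it. Leaving out the low libraries gave 5 of 42 ribosomal protein and 7 of 35 glycolysis and TCA genes higher on the interaction, and 8 and 12 lower without LPS. In SAL–SAL the astrocyte level reached 4.16 in animal 9-4, above every SAL–LPS library, while in MOR–SAL it did not exceed 3.18. No MOR–SAL library came from litters 7 and 16, which held animals 7-1, 16-0, 16-2 and 16-4 of MOR–LPS with high astrocyte levels. The contrasts with and without LPS thus rest on partly different litters. The 4 groups share their fit, and each of these contrasts uses groups of the main comparison or of the other.

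**Figure D4:**
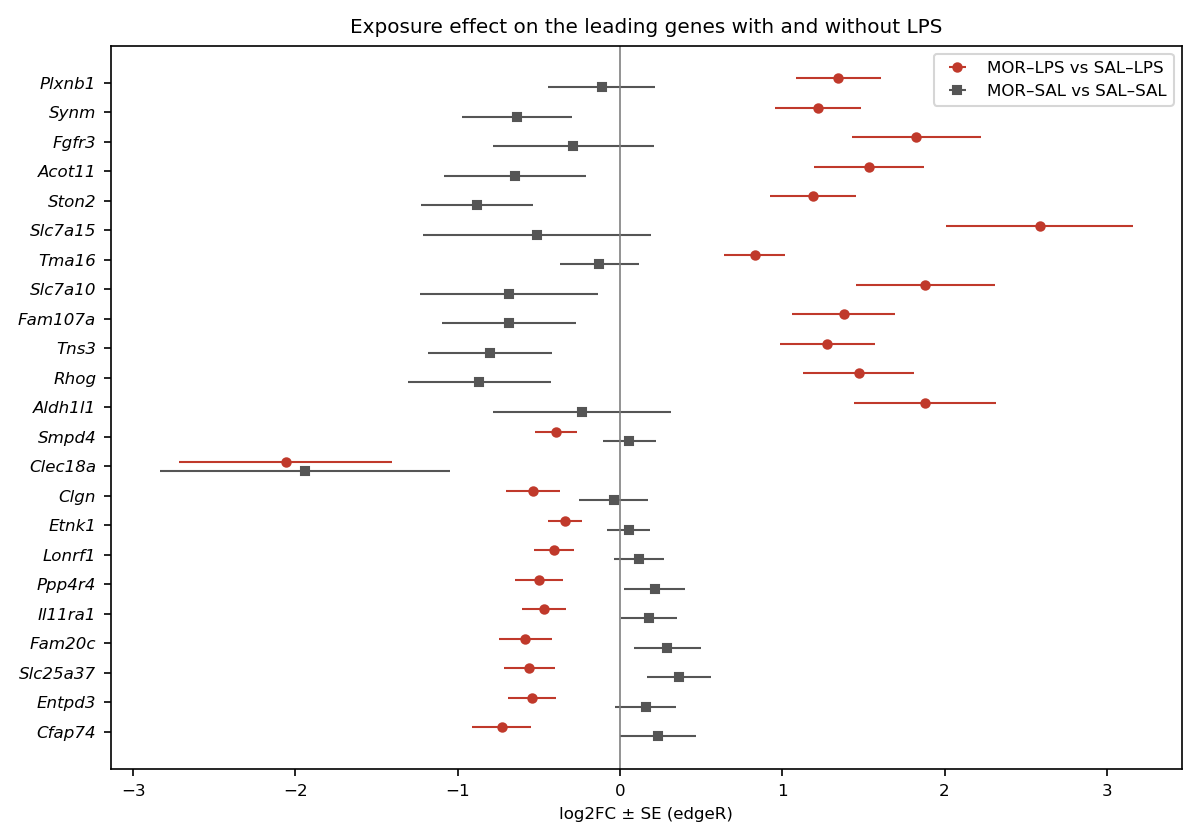
log2FC ± SE of 23 leading genes for the exposure with LPS (MOR–LPS against SAL–LPS, red) and without LPS (MOR–SAL against SAL–SAL, grey) from 1 edgeR fit. The first 12 genes lie above 0 with LPS and below 0 without it, and Clec18a lies below 0 in both.

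The exposure effect after LPS was also fitted within each sex. In females edgeR called 28 described genes, all of them higher (0.196%), and in males 0. At an unadjusted p under 0.05 there were 1087 higher and 308 lower in females, and 159 higher and 183 lower in males. Without the libraries low in medium spiny neuron genes these were 1083 and 294 in females and 93 and 30 in males. The difference between the sexes called 0 described genes in edgeR and 0 in DESeq2, with 586 (4.11%) at an unadjusted p under 0.05, so the effect is not shown to differ between the sexes. The female count was 0 when females were fitted alone, and 227 without the libraries low in medium spiny neuron genes. Median log2FC in females and males were 2.20 and 0.41 for oligodendrocyte, 1.75 and 0.75 for astrocyte, 2.09 and −0.13 for microglia and 1.11 and 0.37 for glucocorticoid-induced genes, and the sex difference had an unadjusted p under 0.05 for 9, 0, 4 and 4 of their members. Without the low libraries these medians were 2.34 and −0.57, 1.68 and 8e-05, 2.22 and −0.57, and 1.24 and −0.10, the sex difference had an unadjusted p under 0.05 for 16, 6, 7 and 11 members (5.19% of all described genes in that fit), and it still called 0 described genes in edgeR. Of the 4 low libraries after LPS 3 were male (1-2, 3-3 and 14-4), and the male medians of these lists depend on them. The astrocyte level was 2.81 ± 0.54 in SAL–LPS and 4.12 ± 0.97 in MOR–LPS females, and 2.79 ± 0.22 and 3.12 ± 0.89 in males. The 8 MOR–LPS females included 6 of the 7 libraries with the highest astrocyte levels, so that these libraries and sex move together. Plxnb1 had log2FC of 1.80 in females and 0.85 in males, Rhog 2.14 and 0.71, Synm 1.11 and 1.24, Cfap74 −0.65 and −0.82 and Entpd3 −0.49 and −0.60.

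The same contrast was fitted in the 3 other regions, many of whose libraries came from the same animals. It called 141 described genes in the hippocampus (15 MOR–LPS and 14 SAL–LPS libraries, 25 animals shared with the striatum), 2 in the prefrontal cortex (14 and 9, 19 shared) and 21 in the hypothalamus (14 and 11, 21 shared). Plxnb1 had log2FC of 0.75, 0.87 and 0.73 there, Fgfr3 1.01, 0.87 and 1.26 and Slc7a10 1.68, 1.58 and 1.26, in that order of regions. Rhog, at 1.74, rose in the hippocampus (edgeR adjusted p = 0.0337), the one call among the 24 leading genes in these regions. The log2FC were −0.05, −0.35 and −0.25 for Cfap74 and −0.43, −0.11 and −0.20 for Entpd3, none past the threshold. Whether the regions differ was not tested.

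**Figure D5:**
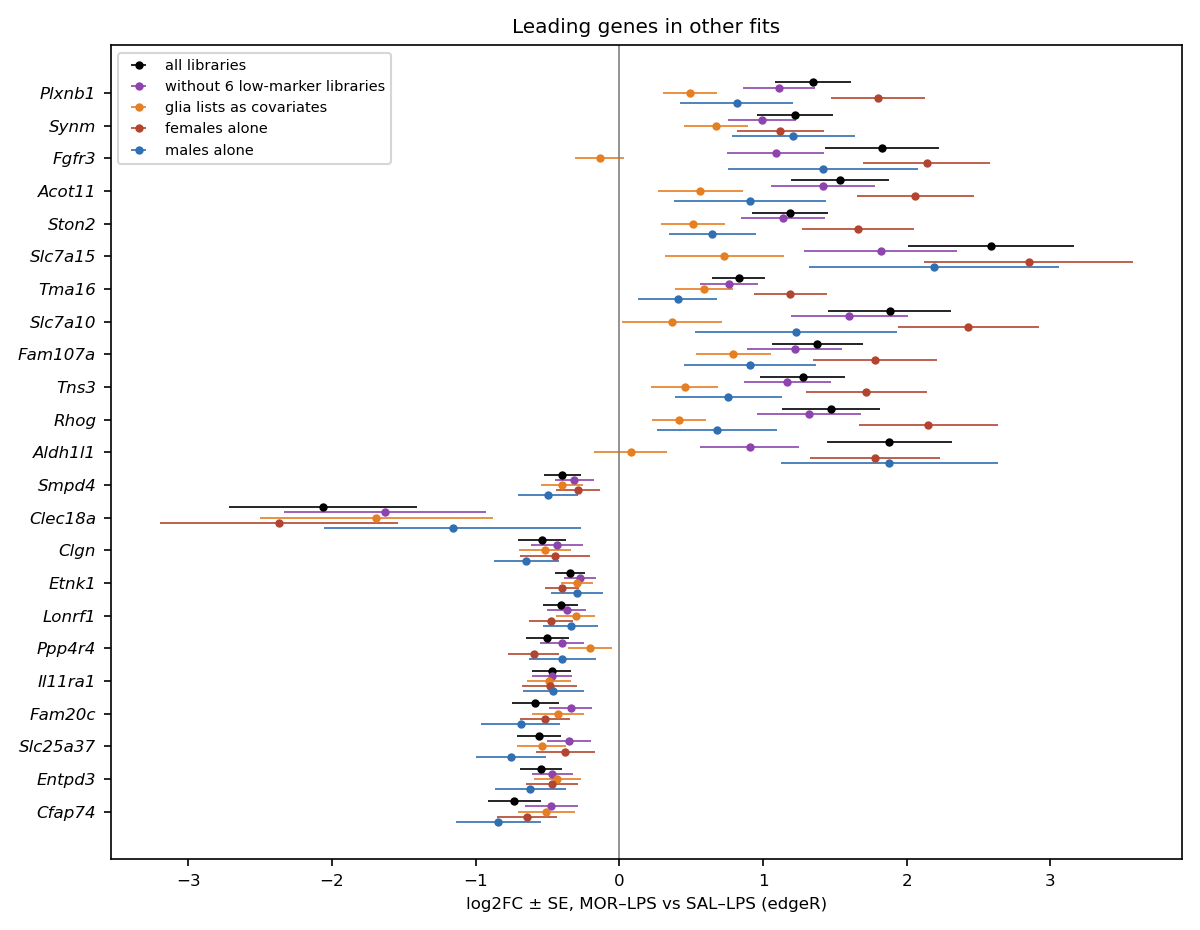
log2FC ± SE of 23 leading genes from edgeR with all libraries (black), without the 6 libraries low in medium spiny neuron genes (purple), with glial list levels as covariates (orange), and in females (red) and males (blue) alone. Only Fgfr3, with the glial covariates, changes sign.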

How the data were processed

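Nuclear RNA of sorted NeuN+ nuclei was sequenced. The authors trimmed reads with Trim Galore 0.6.7, aligned them to mm10 with STAR 2.7.10a and, by their account, counted them per gene against GENCODE vM25, with HTSeq 0.12.4 also named in their notes. They deposited raw counts, used here, and CPM without 37 mitochondrial genes, which were used in the limma alternatives and to check the counts. The strand setting of the counting is not given in the sources used here. Groups, sex and animal numbers came from the labels, and the first part of a number was taken as the litter, after the study's sample list. Here genes with a total count above 10 were scaled by TMM and fitted in R 4.3.3 with edgeR 4.0.16 (quasi-likelihood test, 4 conditions and sex as terms), and p were adjusted by Benjamini-Hochberg over all tested genes and called under 0.05. The within-sex fit had condition by sex groups. Errors after a log2FC are SE derived from the log2FC and the F statistic of edgeR's test, which does not report an SE itself. DESeq2 1.42.0 and limma 3.58.1 (voom with a correlation within litters) were alternatives. The scripts were tested on simulated data, where edgeR also called unchanged genes, mostly genes under 1 CPM, more often than its threshold allows. The named genes were, among described genes with a symbol, the 12 with the smallest p in each direction, up to 12 in each direction called by DESeq2, and for each list the 2 with the smallest p and its defining members. Some of these genes are not reported here. The members and lists were chosen with earlier results of these data known, so list counts are descriptions without a test. List members were matched by symbol, so a member that stood under another symbol was missed. Of 38 genes of opioid receptor signalling and cAMP 35 were tested. Single values used permutation tests over samples with 100000 resamples, and adjusted over 26 such values the p of genes detected was 0.2235. Where a library holds 0 reads of a gene, up to 3 counts remain possible, and this limit ignores amplification, since the deposited counts carry no molecular identifiers. Pairs of libraries were compared, and 0 held identical values. Animals of 1 litter are not independent, so p may be too small. The smallest permutation p possible was 2e-05. Positions are from GENCODE M21 and may differ from the authors' release.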

Additional observations from a re-analysis of the deposited data

Results flagged for a closer look

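Both results here were singled out because the exposure effect differed between the LPS and saline conditions by edgeR's interaction test, and both are genes under 1 CPM that lie outside the described genes. Adh1, an alcohol dehydrogenase gene, had an interaction of −7.5 ± 1.4 (log2 scale, SE, edgeR adjusted p = 0.0463) at a mean of 0.0423 CPM. Its counts summed to 25 in MOR–SAL, all in animal 12-1, to 20 in SAL–LPS over 4 libraries, to 1 in MOR–LPS and to 0 in SAL–SAL. Gm14271, a gene model without a symbol, had an interaction of −8.49 ± 1.47 (edgeR adjusted p = 0.0463) at a mean of 0.0665 CPM. Its counts summed to 24 in MOR–SAL, all in animal 17-2, to 22 in SAL–LPS over 4 libraries and to 0 in MOR–LPS and SAL–SAL. With groups at or near 0 the fitted values depend on the prior count and are no bound on a fold change, and each rests on 1 MOR–SAL library.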

How the results depend on the processing

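The main count of 0 called genes (all tested genes) was also 0 with all striatum libraries, filterByExpr, a filter at 1 CPM, no filter, the size factors of DESeq2, no sex term, counts summed over litters, a robust fit, limma on log2(CPM + 1) and log2(CPM + 0.1), and each sex alone. It was 91 with DESeq2, 54 with library size as the only scaling, 1 with limma-voom and a litter correlation (Fam107a, adjusted p = 0.00791), 1 with the 2 LPS groups alone and, in an alternative chosen after seeing the data, 24 with glial levels as covariates. Leaving out 1 library gave 0 to 75 (75 without SAL–LPS animal 10-4, 3 without 5-0) and leaving out 1 litter 0 to 129 (129 without litter 12, 49 without 6, 3 without 8 and 2 without 5). Library size alone moved the median log2FC of described genes to 0.10. The baseline count of 0 was 6 with DESeq2 and 4 without the sex term. The interaction count of 2 was 125 with DESeq2, 236 with library size alone, 139 without the sex term, and 0 with filterByExpr, the 1 CPM filter, limma-voom and, chosen after seeing the data, without the libraries low in medium spiny neuron genes. The sex difference was 0 in every fit run. Described genes at an unadjusted p under 0.05 numbered 1204 higher and 84 lower with limma on log2(CPM + 1), 1006 and 66 with log2(CPM + 0.1), 1242 and 113 with library size alone, 757 and 524 with filterByExpr, and 102 and 166 in males alone. The causes were not tested.

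The main contrast cannot be blocked, because no litter held both exposures. For the interaction, with litter as the replicate block, 0 genes were called against 2 without the block. The correlation within litters was 0.0288.

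Of the 103 named genes 60 had an unadjusted p under 0.05, and a reversal was counted only among these. 7 of them reversed in some fit. With glial levels as covariates the log2FC became −0.13 for Fgfr3, −0.0018 for Mertk, −0.018 for Mog, −0.0011 for Csf1r, −0.012 for Cx3cr1, −0.076 for Cryab and −0.071 for Tsc22d3, and Cx3cr1 was −0.058 in males alone. Fgfr3, Mog, Csf1r and Cx3cr1 belong to the lists that form these covariates, so their fall to about 0 is built into that fit and is no evidence on them. Of the others 31 changed sign in some fit. The 6 libraries low in medium spiny neuron genes and genes of a few CPM limit the precision.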
